A study of Homo sapiens with 6 samples.

Results

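MALAT1, NEAT1, TUG1, FTX and CDKN2B-AS1 are long noncoding RNAs known from the nucleus, although TUG1 is also found in the cytoplasm. Their levels, but not their location, were compared here between control and ZCCHC24 knockdown libraries. These RNAs were taken from the deposited table by gene symbol, which found 5 of its 57150 genes, each with 1 row. The RNAs were selected on these same FPKM values of control and knockdown libraries, whose results were already known, so their differences are given as a description, without a test. The study compared 3 control libraries (ZCCHC24 CTRL) with 3 libraries in which ZCCHC24, a CCHC-type zinc finger protein, was knocked down (ZCCHC24 KD), all from the established cell line MDA-MB-435. The series title ties the protein to the splicing machinery. The labels do not name the knockdown method or the treatment of the controls. The labels do not say whether the libraries of a group are separate cultures; the p-values therefore reflect library-to-library spread, which may be technical. In RNA from whole cultures, more cells making an RNA and more RNA per cell cannot be told apart.

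The targeted gene followed the labels. ZCCHC24 was at 12.7, 12.3 and 13.2 FPKM (fragments per kilobase of transcript, scaled to sequencing depth) in control libraries 1 to 3 and at 1.54, 1.69 and 1.81 FPKM in knockdown libraries 1 to 3, a limma adjusted p of 1.5e-07. The labels name breast as the tissue. All 8 melanocyte lineage markers had a mean of at least 1 FPKM, and their summed level was 2152 to 2253 FPKM in the controls and 1486 to 1551 FPKM after knockdown. Of 11 breast epithelial markers, 5 reached that level, with sums of 98.3 to 115 FPKM in the controls and 140 to 149 FPKM after knockdown. Most of each sum came from KRT18 and KRT8, which averaged 80.6 and 36.2 FPKM over the libraries. KRT19, CDH1 and EPCAM averaged 4.16, 1.76 and 1.57 FPKM, and KRT5, ELF5 and TFF1 were listed at 0 in every library. The table holds no read totals. Judged by the most common ratio between low values of 2 libraries, the FPKM given by a single fragment varied an estimated 1.27-fold among libraries. This estimate is rough and sets no upper limit, since the most common ratio held only 8.46% to 19.5% of the weak genes compared.

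As background, MALAT1 gathers at nuclear speckles, which store splicing factors, and NEAT1 is the scaffold around which paraspeckle proteins assemble. Both are made from neighbouring genes on chromosome 11, and neither mature MALAT1 nor the long form of NEAT1 carries an ordinary poly(A) tail: RNase P cuts their 3' ends, and a triple helix between U-rich stretches and a genome-encoded A-rich tract protects them. TUG1 is a broadly expressed RNA of the nucleus and cytoplasm that is reported to bind Polycomb proteins. FTX lies in the X-inactivation centre, and CDKN2B-AS1, also called ANRIL, runs antisense through the CDKN2B locus.

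The 3' ends are shown because they bear on how such RNAs are caught by poly(A) selection, which the mRNA kit used here relies on. The MALAT1 stretch (GRCh38 chr11:65506025-65506116, plus strand) ends where RefSeq places the start of mascRNA, the small tRNA-like RNA released by the cut, and the NEAT1 stretch (GRCh38 chr11:65445449-65445540, plus strand) holds the last 92 bases of the 22743-base transcript. Both come from GENCODE v29 transcripts, written 5' to 3' with DNA letters, and capitals mark the runs of at least 10 bases that are the same in both.
MALAT1: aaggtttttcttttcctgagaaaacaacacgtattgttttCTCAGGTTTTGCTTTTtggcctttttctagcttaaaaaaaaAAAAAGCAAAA
NEAT1: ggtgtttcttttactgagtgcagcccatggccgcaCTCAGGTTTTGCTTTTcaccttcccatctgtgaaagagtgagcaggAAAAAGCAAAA
mascRNA: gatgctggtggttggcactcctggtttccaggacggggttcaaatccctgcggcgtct
A run of 16 bases from the U-rich part and a run of 11 bases at the very end were identical in the pair. The longest run of A was 13 bases in the MALAT1 stretch and 5 bases in the NEAT1 stretch. The annotated MALAT1 transcript of 8708 bases goes on for 353 bases past the cut. The table gives 1 value per gene, so cut and uncut MALAT1, or the 3441-base and 22743-base forms of NEAT1, were not separated. How much of each RNA the poly(A) selection caught is unknown, and the values compare what was caught.

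MALAT1 (ENSG00000251562; hg19 chromosome 11, 65265232 to 65273940) was the most abundant of these RNAs in every library and had the largest difference. It was at 161, 200 and 153 FPKM in control libraries 1 to 3 and at 749, 760 and 682 FPKM in knockdown libraries 1 to 3. All knockdown values were far above all control values. The means were 171 ± 25.2 and 730 ± 42.4 FPKM (SD, n = 3 each), a ratio of 4.27, and the difference on the log2(FPKM + 1) scale, which is used for all differences below and always taken as knockdown minus control, was 2.09. The closest pair of libraries differed 3.41-fold and the most distant pair 4.97-fold. MALAT1 ranked 498th to 707th among all genes of the table in the controls and 131st to 140th after knockdown. AP000769.7 is a weak gene on the opposite strand that shares the listed interval of MALAT1. Its listed values were 0.169, 0.391 and 0 FPKM in control libraries 1 to 3 and 0.715, 0.977 and 0.909 FPKM after knockdown. Its mean was under the 1 FPKM needed for testing, and the kit keeps strand information but whether counting used it is not stated.

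NEAT1 (ENSG00000245532; hg19 chromosome 11, 65190244 to 65213011) was at 108, 118 and 90.9 FPKM in control libraries 1 to 3. In knockdown libraries 1 to 3 it was at 296, 303 and 268 FPKM, and again the groups did not overlap. The means were 106 ± 13.6 and 289 ± 18.4 FPKM (SD, n = 3 each), a ratio of 2.74 and a log2 difference of 1.45. MALAT1 and NEAT1 had the same order of libraries within each group: library 2 was highest and library 3 lowest, in the controls and after knockdown alike. The ratio of the MALAT1 level to the NEAT1 level was 1.48, 1.70 and 1.68 in the controls and 2.53, 2.51 and 2.54 after knockdown. The knockdown libraries thus gave almost the same ratio, which lay above that of each control library.

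FTX (ENSG00000230590; listed in hg19 as chromosome X, 73164158 to 73513409, an interval it shares with other genes) was a weak RNA in the controls. It was at 3.79, 4.72 and 5.13 FPKM in control libraries 1 to 3 and at 18.3, 17.0 and 14.9 FPKM in knockdown libraries 1 to 3. Every knockdown library lay above every control library. The means were 4.55 ± 0.689 and 16.7 ± 1.72 FPKM (SD, n = 3 each), a ratio of 3.67 and a log2 difference of 1.68. FTX is also the host of microRNAs, and MIR374A, MIR374B, MIR421 and MIR545, which GENCODE v29 places inside it, were all 4 listed at 0 in the 6 libraries. Mature microRNAs are too short for such libraries, so their levels were not measured.

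TUG1 (ENSG00000253352; hg19 chromosome 22, 31366662 to 31375381) stayed within a narrow range. It was at 52.8, 60.0 and 54.8 FPKM in control libraries 1 to 3 and at 59.3, 62.1 and 59.7 FPKM in knockdown libraries 1 to 3. The groups overlapped, because control library 2 lay above knockdown libraries 1 and 3. The means were 55.8 ± 3.70 and 60.4 ± 1.51 FPKM (SD, n = 3 each), a ratio of 1.08 and a log2 difference of 0.11, which fell to 0.07 without control library 1.

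CDKN2B-AS1 (ENSG00000240498; listed in hg19 as chromosome 9, 21802541 to 22121096, an interval shared with MTAP, CDKN2A and CDKN2B) was the weakest and the most variable. It was at 1.49, 2.97 and 4.43 FPKM in control libraries 1 to 3 and at 3.54, 5.23 and 4.22 FPKM in knockdown libraries 1 to 3. The groups overlapped, as control library 3 lay above knockdown libraries 1 and 3. The means were 2.96 ± 1.47 and 4.33 ± 0.850 FPKM (SD, n = 3 each), a ratio of 1.46. The log2 difference of 0.49 depended on single libraries: it was 0.19 without control library 1 and 0.75 without control library 3. The coefficient of variation in the controls was 49.5%, against 6.63% to 15.2% for the other 4 RNAs.

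**Figure D1:**
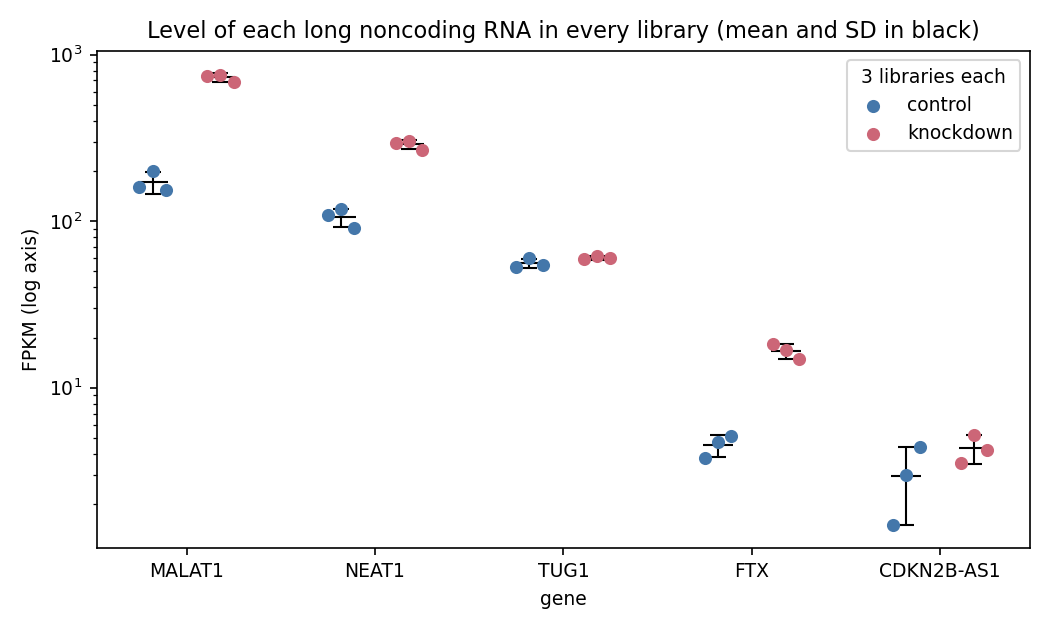
FPKM on a log axis for the 5 RNAs in each of 3 control and 3 knockdown libraries (points), with mean and SD in black. MALAT1, NEAT1 and FTX have separate groups, with ratios of means of 4.27, 2.74 and 3.67, while the groups of TUG1 and CDKN2B-AS1 overlap.

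The order of levels was MALAT1, NEAT1, TUG1, FTX and CDKN2B-AS1 in each of the 6 libraries. FPKM is scaled by length but not by the share of an RNA that poly(A) selection caught, so this order and the ratios between RNAs describe the caught RNA and not the amounts in the cell. FTX and CDKN2B-AS1 were not separate in the controls, where their ranges of 3.79 to 5.13 and 1.49 to 4.43 FPKM overlapped, and they were separate after knockdown. The distances changed: MALAT1 was 2.79 to 3.34 times the TUG1 level in the controls and 11.4 to 12.6 times after knockdown, and TUG1 was 10.7 to 13.9 times the FTX level in the controls and 3.24 to 4.02 times after knockdown. Of the summed FPKM of all genes that GENCODE v29 types as long noncoding, MALAT1 made up 1.54% to 2.001% in the controls and 5.36% to 5.83% after knockdown. Long noncoding genes other than the 5 gave 1.34% of the summed FPKM of all genes in each control library and 1.71% to 1.74% in the knockdown libraries. Among long noncoding genes MALAT1 ranked 10th or 11th in the controls and 2nd in each knockdown library, and NEAT1 ranked 13th to 15th and then 10th.

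These differences were set in a data set where most genes moved. In 3 of the 5 RNAs the groups did not overlap, against 75.9% of the 13343 genes tested, which are those averaging 1 FPKM or more over the libraries. The groups were separate with the knockdown higher in 38.7% of the tested genes. Among 981 other tested long noncoding RNA genes these shares were 67.9% and 39.9%, and limma called 38.3% of them higher and 26.1% lower, together 64.4%. The median log2 difference was 0.01 over all tested genes, 0.12 over the other long noncoding genes and -0.01 over protein-coding genes. By size, 34 of all tested genes had a larger log2 difference than MALAT1, 89 a larger one than FTX and 187 a larger one than NEAT1. TUG1 stood at percentile 56.7 and CDKN2B-AS1 at percentile 79.2 of the tested genes. Among the other long noncoding genes 3 exceeded MALAT1, 14 exceeded FTX and 31 exceeded NEAT1.

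**Figure D2:**
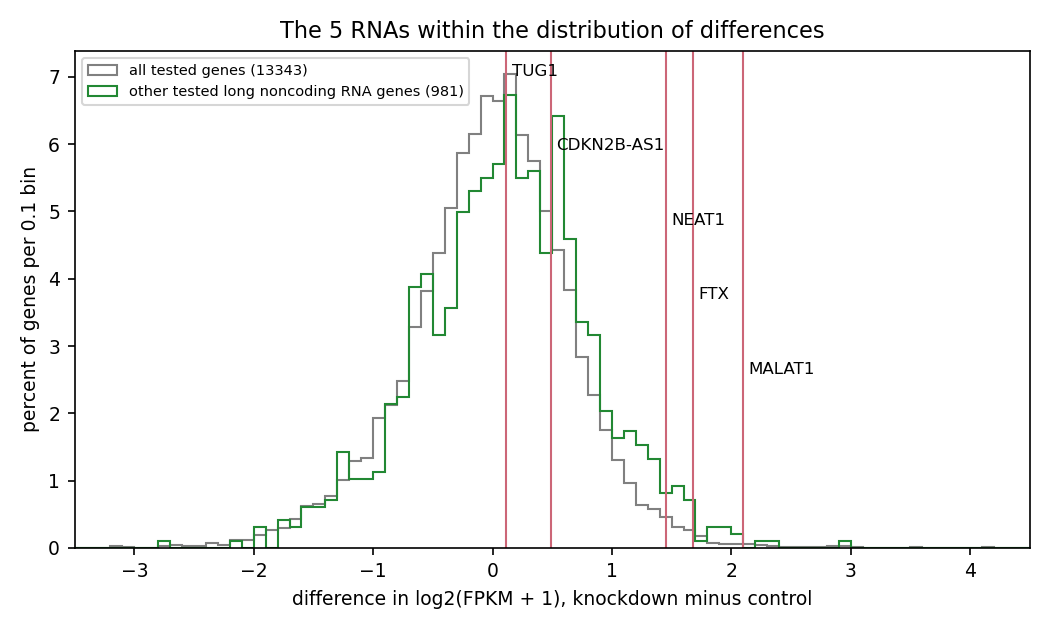
Distribution of the log2(FPKM + 1) difference, knockdown minus control, as percent of genes per bin of 0.1, for all 13343 tested genes (grey) and 981 other tested long noncoding RNA genes (green), with the 5 RNAs as vertical lines. MALAT1 (2.09), FTX (1.68) and NEAT1 (1.45) lie in the right tail, and TUG1 (0.11) lies near the middle.

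The 5 RNAs were all longer than the typical long noncoding RNA of these cells. Their longest GENCODE v29 transcripts have 22743 bases for NEAT1, 12267 for FTX, 8708 for MALAT1, 7469 for TUG1 and 3835 for CDKN2B-AS1, against a median of 1500 over the other tested long noncoding genes, of which 1.33% reach 8000 bases. Structure differed: MALAT1 and NEAT1 have a single exon, as do 21.7% of the others, whereas the longest transcripts of TUG1, FTX and CDKN2B-AS1 have 3, 4 and 19 exons. GC content was 37.2% in FTX, 40.3% in MALAT1, 42.5% in CDKN2B-AS1, 43.1% in TUG1 and 44.1% in NEAT1, each under the median of 48.1%. The letters AGCCC, known as a nuclear retention signal in the mouse RNA BORG, occurred 1.34 times per kb in TUG1, 0.97 in NEAT1, 0.92 in MALAT1, 0.57 in FTX and 0.52 in CDKN2B-AS1, against a median of 1.20. Runs of A, which can bind the oligo(dT) used for selection, reached 23 bases in FTX, 22 in NEAT1, 18 in TUG1, 13 in MALAT1 and 7 in CDKN2B-AS1.

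Promoters are shown for MALAT1 and FTX, whose levels were separate between the groups, and for TUG1, whose level was not. They cover 250 bases before to 50 after a start annotated in RefSeq (GRCh38.p14), at chr11:65498795-65499094 on the plus strand for the downstream of 2 MALAT1 starts, chrX:74293525-74293824 on the minus strand for FTX and chr22:30969015-30969314 on the plus strand for TUG1. Promoter sequence was at hand for 4 of the 5 RNAs, with none for NEAT1. Whether the letters of a promoter go with the change in level was not tested. Capitals mark, on either strand, TATAAA (bound by TBP), CCAAT (bound by the factor NF-Y), GGGCGG (bound by SP1 and its relatives), CACGTG (bound by MYC and its relatives) and TGACGT (bound by CREB and its relatives).
MALAT1: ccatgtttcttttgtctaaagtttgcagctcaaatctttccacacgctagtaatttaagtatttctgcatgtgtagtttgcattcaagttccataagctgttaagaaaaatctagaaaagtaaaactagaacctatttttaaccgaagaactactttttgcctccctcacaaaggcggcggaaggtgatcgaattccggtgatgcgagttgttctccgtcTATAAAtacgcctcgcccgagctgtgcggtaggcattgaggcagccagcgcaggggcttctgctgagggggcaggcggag
FTX: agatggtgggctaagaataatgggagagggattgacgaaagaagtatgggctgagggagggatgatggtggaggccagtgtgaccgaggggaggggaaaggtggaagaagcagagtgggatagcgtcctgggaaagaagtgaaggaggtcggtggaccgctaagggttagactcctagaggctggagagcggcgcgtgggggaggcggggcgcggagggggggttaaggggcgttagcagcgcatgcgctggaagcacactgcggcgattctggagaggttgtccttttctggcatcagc
TUG1: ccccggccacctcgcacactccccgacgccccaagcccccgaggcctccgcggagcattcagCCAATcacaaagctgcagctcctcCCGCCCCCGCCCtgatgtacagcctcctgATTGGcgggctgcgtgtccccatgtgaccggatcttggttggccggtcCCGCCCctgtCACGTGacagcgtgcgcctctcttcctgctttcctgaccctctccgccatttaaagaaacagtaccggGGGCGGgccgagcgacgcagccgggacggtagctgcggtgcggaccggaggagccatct
The MALAT1 window held TATAAA once, which 11.6% of 34796 promoters of this length hold on either strand. The TUG1 window held CACGTG, present in 7.20% of promoters, CCAAT at 2 places, present in 34.6%, and GGGCGG at 4 places, present in 44.9%. No matches overlap, and a pair of the GGGCGG matches lie side by side. The FTX window held none of these letters, and TGACGT, present in 7.97% of promoters, was in none of the windows of these RNAs. The GC content was 46.0% for this MALAT1 start, 60.0% for FTX and 67.7% for TUG1. The upstream MALAT1 start, at 73.7%, and the CDKN2B-AS1 start, at 74.0%, were GC-rich and held GGGCGG at 5 and 2 places.

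Genes around MALAT1 and NEAT1 changed in both directions, and no tested neighbour had a rise as large as those of MALAT1 and NEAT1. Across all genes tested, limma (two-sided, Benjamini-Hochberg adjusted p below 0.05) called 37% higher and 35.4% lower, together 72.4%. Within 200 kb of the MALAT1 locus, 6 of 16 tested genes were higher, 8 were lower and 2 did not pass. Their median log2 difference was -0.09. FRMD8, which lies 9.25 kb from NEAT1, was at 26.3 ± 0.616 and 27.3 ± 0.956 FPKM (adjusted p = 0.39). The pseudogene AP000769.1, between NEAT1 and MALAT1, was at 2.42 ± 0.420 and 1.61 ± 0.399 FPKM, with an adjusted p of 0.045 that was 0.14 without control library 1, 0.10 without control library 3, 0.14 without knockdown library 1 and 0.064 without knockdown library 2. The largest neighbouring changes were the falls of POLA2, a subunit of DNA polymerase alpha, from 35.7 ± 2.30 to 10.2 ± 1.30 FPKM (adjusted p = 1.1e-06), and of SLC25A45, a mitochondrial carrier, from 8.88 ± 0.545 to 2.38 ± 0.351 FPKM (adjusted p = 3.0e-06). RELA, the p65 subunit of NF-kB, had the largest rise among these neighbours, with a log2 difference of 0.86; it was named after its value was seen.

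**Figure D3:**
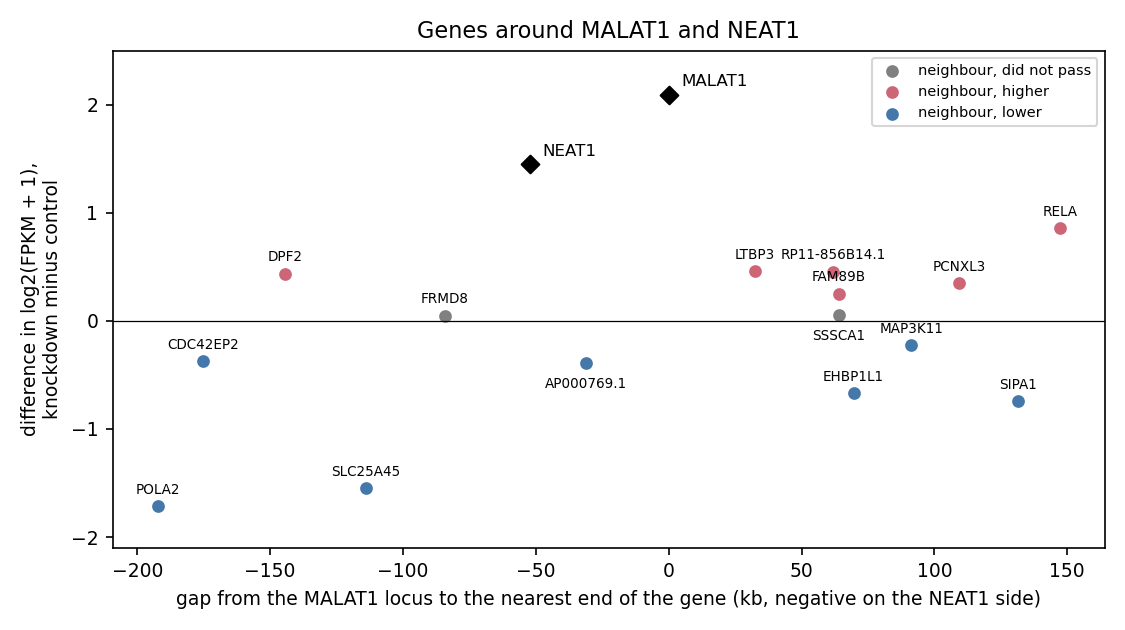
Log2(FPKM + 1) difference, knockdown minus control, of 15 of the 16 tested genes within 200 kb of MALAT1 against their gap to its locus in kb, coloured by the limma call, with MALAT1 and NEAT1 as black diamonds. Neighbours run from -1.72 (POLA2) to 0.86 (RELA), below NEAT1 at 1.45 and MALAT1 at 2.09.

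The 5 tested genes that share the listed interval of FTX were called higher, beside 37% of all tested genes. Among them, the lincRNA ENSG00000228906 was at 0.863 ± 0.257 and 1.96 ± 0.743 FPKM and passed the filter on low values only through its knockdown libraries. JPX, a long noncoding RNA that activates XIST and overlaps FTX on the opposite strand, rose from 21.5 ± 1.49 to 36.5 ± 2.55 FPKM (log2 difference 0.74, limma adjusted p = 2.5e-05). It was at 21.2, 20.2 and 23.1 FPKM in the controls and at 36.1, 34.2 and 39.2 FPKM after knockdown, with no overlap. Of the 5 tested genes of the interval, 4 matched GENCODE v29 by ID and overlap FTX there; RP3-368A4.6, typed as intronic on the FTX strand, had a log2 difference of 1.11. Reads of overlapping genes can be shared between their values, so these rises and that of FTX are not independent measurements. Outside the interval, RLIM, a ubiquitin ligase that acts on X inactivation, rose from 47.2 ± 2.98 to 63.6 ± 2.52 FPKM (adjusted p = 0.00019). CHIC1 was at 7.28 ± 0.731 and 8.33 ± 0.718 FPKM (adjusted p = 0.12, and 0.043 without control library 3).

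At the CDKN2B-AS1 locus the protein-coding genes went different ways. CDKN2B, which encodes the CDK4 and CDK6 inhibitor p15 and lies inside CDKN2B-AS1 on the opposite strand over its whole 6461 bases in GENCODE v29, rose from 3.78 ± 0.922 to 15.4 ± 1.67 FPKM (log2 difference 1.79, limma adjusted p = 1.1e-05). CDKN2A, which encodes p16 and ARF, fell from 72.6 ± 0.787 to 60.9 ± 4.44 FPKM (adjusted p = 0.0036), and its first 524 bases overlap the start of CDKN2B-AS1. MTAP, a purine salvage enzyme, was at 59.9 ± 2.48 and 55.6 ± 0.728 FPKM (adjusted p = 0.056, and 0.046 without control library 1). Unless counting used the strand, reads of CDKN2B and of its antisense partner cannot be told apart. KLHL9 and DMRTA1, the nearest tested genes outside the interval, did not pass (adjusted p = 0.23 and 0.75).

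TUG1 and MORC2 start 946 bases apart on opposite strands in GENCODE v29, which types TUG1 as the RNA of a bidirectional promoter. MORC2, a chromatin compaction ATPase, rose from 10.5 ± 0.218 to 13.95 ± 0.558 FPKM (log2 difference 0.38, limma adjusted p = 0.00037), beside 0.11 for TUG1. The difference between the 2 was not tested. SMTN, a cytoskeletal protein on the other side of TUG1, rose from 7.52 ± 0.828 to 13.0 ± 0.185 FPKM (adjusted p = 5.7e-05).

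The share of paraspeckle protein mRNAs that was called was near that of all genes, with more of them lower than higher. Limma called 68.8% of the 32 tested, 6 as higher and 16 as lower. Among all tested genes it called 72.4%, 37% as higher and 35.4% as lower. The list's median log2 difference was -0.12 beside 0.01 over all genes. The core proteins moved little: NONO rose from 258 ± 9.81 to 285 ± 1.76 FPKM (limma adjusted p = 0.0087), SFPQ fell from 144 ± 2.64 to 122 ± 7.34 FPKM (adjusted p = 0.0026) and PSPC1 fell from 37.3 ± 0.694 to 31.5 ± 0.770 FPKM (adjusted p = 0.0011). RBM14 was at 40.3 ± 1.45 and 39.2 ± 3.35 FPKM (adjusted p = 0.59) and HNRNPK, which favours the long form of NEAT1, at 385 ± 14.3 and 376 ± 5.97 FPKM (adjusted p = 0.41). NUDT21 and CPSF6, the cleavage factor that favours the short form, fell from 88.6 ± 3.81 to 58.9 ± 3.63 FPKM (adjusted p = 2.7e-05) and from 37.8 ± 1.02 to 31.8 ± 0.612 FPKM (adjusted p = 0.00099). The largest changes were falls of TAF15 (log2 difference -1.35) and FAM98A (-0.81) and a rise of AKAP8L (0.88).

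mRNAs of nuclear speckle proteins were higher more often than lower. Limma called 83.9% of the 31 tested, 18 as higher and 8 as lower, against 72.4% of all genes (37% higher and 35.4% lower). The median log2 difference of the list was 0.42. SON and SRRM2, the large proteins that form the core of speckles, rose from 117 ± 6.55 to 195 ± 8.82 FPKM (limma adjusted p = 5.7e-06) and from 89.7 ± 5.46 to 172 ± 11.7 FPKM (adjusted p = 4.0e-06). RNPS1 rose from 167 ± 7.19 to 204 ± 5.83 FPKM (adjusted p = 0.00041). SRRM1 was at 39.98 ± 1.38 and 43.8 ± 2.99 FPKM (adjusted p = 0.081, and 0.017 without knockdown library 3). The largest rises besides SRRM2 were those of the SR protein kinases CLK1 (log2 difference 1.41) and CLK4 (1.12). The 8 that fell, named after their values were seen, were the SR splicing factors SRSF7 (log2 difference -0.65), SRSF1 (-0.55), SRSF2 (-0.54), SRSF3 (-0.40) and SRSF6 (-0.13), the related TRA2B (-0.33), the 3' splice site factor U2AF1 (-0.50) and the helicase DDX39B (-0.31).

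Factors that mature, modify or degrade nuclear RNA were divided. Of 13 RNase P, 3' end and triple-helix factors, 3 rose and 4 fell, and the median log2 difference was -0.06. Limma called 53.8% of this list, 79.2% of the exosome list and 81.8% of the m6A list described next, beside 72.4% of all tested genes (37% higher and 35.4% lower). ELAC2, the RNase Z that trims the mascRNA end, fell from 26.2 ± 1.58 to 18.1 ± 0.0908 FPKM (limma adjusted p = 6.1e-05). POP7, an RNase P protein, fell from 73.5 ± 2.70 to 45.5 ± 1.45 FPKM (adjusted p = 3.8e-06), and METTL16, which binds the MALAT1 triple helix, rose from 15.8 ± 0.945 to 20.5 ± 1.52 FPKM (adjusted p = 0.0019). Of 24 genes of the nuclear exosome and its adaptors, 9 rose and 10 fell, and the median was 0.06. The core subunits EXOSC8 and EXOSC7 had log2 differences of -1.10 and -0.86, whereas ZFC3H1, the adaptor for polyadenylated nuclear RNA, rose from 12.6 ± 1.73 to 33.5 ± 2.60 FPKM (adjusted p = 6.7e-06). Of 11 genes of m6A, the base modification that MALAT1 also carries, 6 rose and 3 fell, and the median was 0.32. METTL14 rose from 7.54 ± 0.195 to 14.45 ± 0.919 FPKM (adjusted p = 7.2e-06) and the reader YTHDC1 from 27.65 ± 1.59 to 35.7 ± 2.94 FPKM (adjusted p = 0.0018), and METTL3 was at 35.7 ± 0.989 and 36.1 ± 0.127 FPKM (adjusted p = 0.72). The demethylase FTO and KIAA1429 of the writer complex had log2 differences of 0.69 and 0.51.

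Polycomb genes, whose proteins are reported to bind TUG1 and CDKN2B-AS1, also went both ways: of 24 tested, 8 rose and 10 fell, and the median log2 difference was -0.08. The share called was 75%, close to the 72.4% of all tested genes. EZH2, the methyltransferase, fell from 20.0 ± 1.20 to 13.1 ± 0.326 FPKM (limma adjusted p = 4.4e-05), while its relative EZH1 rose from 7.59 ± 0.673 to 21.7 ± 1.89 FPKM (adjusted p = 2.2e-06). EED was at 19.4 ± 0.333 and 18.7 ± 0.879 FPKM (adjusted p = 0.43). SUZ12 rose from 13.4 ± 0.918 to 16.2 ± 1.49 FPKM, with an adjusted p of 0.018 that was 0.059 without control library 1 and 0.065 without knockdown library 2. CBX7, reported to bind CDKN2B-AS1, rose from 6.40 ± 0.562 to 8.83 ± 0.626 FPKM (adjusted p = 0.0022). The largest falls were those of CBX2 (log2 difference -1.40) and PHF19 (-1.08).

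**Figure D4:**
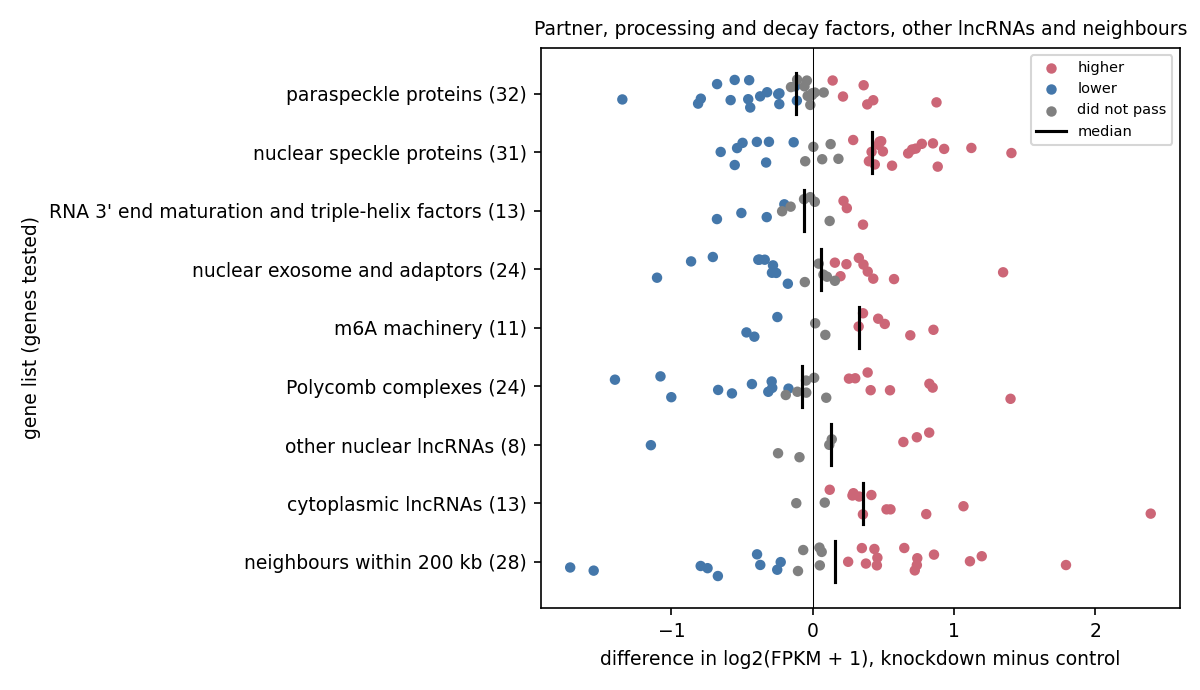
Log2(FPKM + 1) difference, knockdown minus control, of each tested gene in 9 lists, coloured by the limma call, with the list median as a black line (vertical scatter only separates points). Nuclear speckle proteins (median 0.42) and cytoplasmic lncRNAs (0.36) lie mostly to the right, and paraspeckle proteins (-0.12) mostly to the left. The list of cytoplasmic lncRNAs also holds snoRNA hosts and a microRNA host.

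Long noncoding RNAs on the other lists were also measured. The list of cytoplasmic lncRNAs also holds snoRNA hosts, such as GAS5 and SNHG1, and the microRNA host MIR22HG. Of its 13 tested RNAs, limma called 11 higher and 0 lower. The share called higher was 37% among all tested genes and 38.3% among the other long noncoding genes. The median log2 difference was 0.36. MIR22HG, the host of a microRNA, rose from 8.07 ± 0.0629 to 46.6 ± 2.30 FPKM (log2 difference 2.39, adjusted p = 6.3e-08), a larger difference than that of MALAT1. LINC00657, also called NORAD, rose from 144 ± 8.79 to 251 ± 4.04 FPKM (adjusted p = 2.3e-06), and TINCR, one of the 11, was at 0.401 ± 0.266 and 1.90 ± 0.144 FPKM and so passed the filter on low values only through its knockdown libraries. OIP5-AS1, a cytoplasmic RNA that holds the protein HuR, was at 28.004 ± 1.05 and 25.7 ± 0.655 FPKM (adjusted p = 0.057). Of 8 tested RNAs on the list of other nuclear lncRNAs, limma called 3 higher, JPX among them, and 1 lower, a share near that of all tested genes for the higher calls. HOTAIRM1, from the HOXA cluster, rose from 9.77 ± 0.454 to 18.1 ± 1.05 FPKM (adjusted p = 8.5e-06). RMRP, the RNA of RNase MRP, which has no poly(A) tail, fell from 757 ± 131 to 340 ± 32.7 FPKM (adjusted p = 4.5e-05). Whether nuclear and cytoplasmic RNAs differ in response was not tested.

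The genes most like each RNA over the 6 libraries were found by the root mean square difference between centred log2(FPKM + 1) profiles. ARRDC3, an arrestin-domain protein, was nearest to MALAT1 (0.08), followed by PBXIP1 (0.12) and the long noncoding RNA RP11-304L19.5 (0.13). ARRDC3 was at 7.37, 8.42 and 7.505 FPKM in the controls and at 34.8, 37.2 and 34.8 FPKM after knockdown. RP11-304L19.5 lay at 218 to 242 FPKM in the controls and at 833 to 982 FPKM after knockdown, above MALAT1 in all 6 libraries. BCAS3 was nearest to NEAT1, at 4.93, 5.74 and 4.05 and then 15.997, 15.5 and 14.6 FPKM, followed by the lincRNA ENSG00000262202 and the pseudogene CTD-2571E19.3 (0.04 for all 3). B4GALT6, which makes lactosylceramide, was nearest to FTX (0.08), rising from 8.67 ± 0.834 to 29.7 ± 0.258 FPKM, followed by IGLV1-51 and RP11-567J24.4 (both 0.09). ENSG00000262202, CTD-2571E19.3, IGLV1-51 and RP11-567J24.4 had control means under 1 FPKM. These genes passed the filter on low values only through their knockdown libraries. ZBTB11, KIAA0368 and GS1-358P8.4 were nearest to TUG1 (all 0.02). The rows listed as MOB4 (0.10), PA2G4 (0.12) and FKSG61 (0.15) were nearest to CDKN2B-AS1; the first has the ID of the HSPE1-MOB4 readthrough gene in GENCODE v29. The distance is taken on log2(FPKM + 1), which shrinks the differences of weak genes, so a small distance does not mean a like fold: the ratio of means was 6.11 for ENSG00000262202 and 5.75 for CTD-2571E19.3, against 2.74 for NEAT1, and 7.13 for IGLV1-51 against 3.67 for FTX. It says nothing of shared control.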

How the data were processed

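RNA-seq libraries of MDA-MB-435 cells were analysed, 3 controls and 3 with ZCCHC24 knockdown, with groups and numbers taken from the sample titles. A stranded mRNA kit and paired-end sequencing were used, per the labels' protocols. The authors deposited 1 table of FPKM values for 57150 genes, per the file headers; 1 blank row was left out. Per the submitters' processing notes, TopHat 1.4.1, Cuffdiff 2.2.0 and hg19 were involved; no roles are given. The gene annotation, strand use in counting and between-library scaling are likewise not stated. Absolute depth cannot be read from FPKM, and no count model was fitted.

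The 5 RNAs and the gene lists were chosen with earlier results of these data known. The 13343 genes averaging 1 FPKM or more were fitted on log2(FPKM + 1) with limma 3.58.1 in R 4.3.3, with empirical Bayes moderation and a mean-variance trend, two-sided, Benjamini-Hochberg adjusted, at a threshold of 0.05. The pseudocount understates changes of weak genes; the ratios given are ratios of mean FPKM. Before use, the fit was tested on simulated data. Few genes were changed there and no weak ones, unlike in the real data, where most genes were called. Genes were named by rule: the 5 RNAs, ZCCHC24, the 3 genes most like each RNA, the 3 largest called changes with separate groups in each list, fixed core genes, and nearest neighbours. Some genes that the rule names are not reported here, and XIST was not analysed here. Positions are hg19 as listed in the table unless a GRCh38 source, GENCODE v29 or RefSeq, is named. The fit was repeated with other pseudocount (0.1) and filter (none, or 5 FPKM) settings, after scaling libraries to 1 median, with a block for the replicate number, and with each library left out.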

Additional observations from a re-analysis of the deposited data

How the results depend on the processing

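The 5 RNAs kept the sign of their difference under a pseudocount of 0.1, median scaling and leaving out any library. Summing the rows of a symbol could change nothing, since each RNA has 1 row. FTX moved from 1.68 to 1.86 at a pseudocount of 0.1, which pulls low levels together less than 1 does. With 1 library left out, the log2 difference ran from 2.02 to 2.21 for MALAT1, 1.35 to 1.53 for NEAT1, 1.57 to 1.75 for FTX, 0.07 to 0.16 for TUG1 and 0.19 to 0.75 for CDKN2B-AS1. Genes called numbered 4541 to 4821 higher and 4508 to 4588 lower. Of the 9667 calls, 8925 to 9070 were kept with 1 library left out, 8868 without the filter and 7896 at 5 FPKM. None became a call of the opposite sign in any refit. Without the filter, 6 rather than 3 of the other nuclear lncRNAs were higher, since more weak genes were tested; at 5 FPKM, 9 rather than 14 neighbours were higher, since fewer were. Leaving out 1 library gave 0 to 1 lower cytoplasmic lncRNAs (OIP5-AS1 without control library 1) and 1 to 2 lower other nuclear lncRNAs (RPPH1 without control library 3). RBM14 ran from -0.10 to 0.020 (the sign turned without knockdown library 2) and DMRTA1 from -0.0049 (without knockdown library 3) to 0.10; neither was called. SUZ12 missed the threshold without the filter (adjusted p = 0.051), AP000769.1 also missed it without the filter (0.12) and under median scaling (0.064), and SRRM1 passed under median scaling (0.035). The deviations of libraries with the same number had correlations of -0.03, -0.07 and 0.02, and 1 of 6 libraries correlated best with its own number. With the replicate block 4971 genes were higher and 4773 lower, with adjusted p = 0.038 for SRRM1 and 0.077 for AP000769.1. No detection limit can be set without read totals.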
